A study of Mus musculus with 9 samples.

Results

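A set of 3551 windows of 1 kb was described in which CpG methylation was high in wild type (WT) mouse embryonic stem cells (ESCs) and close to absent after loss of Dnmt3a. The windows were chosen by their own methylation levels. A non-overlapping window was eligible if it held 5 or more CpGs with at least 5 reads in WT, Dnmt3a knockout (KO) and Dnmt3b KO ESCs, and its level was the mean of the methylation ratios of these CpGs. It was selected if the level was at least 70% in WT and at most 10% in Dnmt3a KO, and higher in Dnmt3b KO than in Dnmt3a KO. Of 1067454 eligible windows, 3551 (0.333%) met the rule, which is 0.356% of the 998003 eligible windows with at least 70% methylation in WT. The last condition removed 0 windows. The low level in Dnmt3a KO and the high level in WT are therefore the selection itself and carry no test.

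The data were whole genome bisulfite sequencing (WGBS) of J1 ESCs of the 129S4/SvJae strain, grown on gelatin in medium with serum and LIF. There were 3 genotypes, WT, Dnmt3a KO and Dnmt3b KO, with 3 libraries of each, and no treatment or time course. The labels name no separate clones of a KO, and the 3 libraries of a genotype are merged in 1 table, so that each value below is 1 pooled value without replicate error. In the Dnmt3a gene, 12 successive CpGs with at least 10 reads in WT had 0 reads in Dnmt3a KO, and in the Dnmt3b gene 30 successive CpGs had 0 reads in Dnmt3b KO, while the other KO had reads at each of these CpGs. The identity of the cells could not be checked by marker expression in DNA data. The WT table covers chromosomes 1 to 3 and 10 to 19 and chromosome 4 up to position 140865857 (mm9), and the other chromosomes were not analysed in WT. Selected windows had medians of 23.7, 21.5 and 22.8 reads per CpG in WT, Dnmt3a KO and Dnmt3b KO, against 24.1, 22.0 and 23.0 in all windows of WT at least 70%.

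DNMT3A and DNMT3B are the enzymes that place new methyl groups on CpGs, and DNMT1 copies existing methylation onto the new strand after replication. TET enzymes oxidise 5-methylcytosine and so open a way to its removal. In ESCs most of the genome is highly methylated, while CpG islands, active promoters and wide undermethylated regions around developmental genes, called canyons, stay low, and enhancers tend to lie in between.

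The sequence of 7 stretches is given from the mm9 reference, each the 300 bases with the most CpGs of its window, on the plus strand, with every CpG in capitals. Repeats were not annotated here, so that some of these stretches and windows may lie in repeats. The first pair comes from the longest row of neighbouring selected windows, 6 windows, and from the row with the most CpGs among the 4 rows of 4 windows. These are an intron of Esrrb, a nuclear receptor of the pluripotency network, at chr12:87814439-87814738, and an intergenic site at chr17:46983588-46983887, nearest to the start of BC032203.
Esrrb intron: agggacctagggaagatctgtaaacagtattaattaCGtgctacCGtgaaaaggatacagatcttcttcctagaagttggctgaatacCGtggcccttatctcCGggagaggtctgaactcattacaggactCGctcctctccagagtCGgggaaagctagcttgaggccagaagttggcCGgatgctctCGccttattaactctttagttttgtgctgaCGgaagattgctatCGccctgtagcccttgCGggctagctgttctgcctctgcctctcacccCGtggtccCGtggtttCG
near BC032203: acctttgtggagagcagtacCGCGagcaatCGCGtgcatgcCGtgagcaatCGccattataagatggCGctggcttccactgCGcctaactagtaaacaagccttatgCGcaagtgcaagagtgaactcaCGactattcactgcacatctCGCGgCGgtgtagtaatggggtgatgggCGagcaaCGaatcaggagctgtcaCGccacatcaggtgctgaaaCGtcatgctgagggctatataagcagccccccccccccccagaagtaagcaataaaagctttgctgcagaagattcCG
The next comes from the window with the most CpGs, an exon of Srsf4, which encodes a splicing factor with a long arginine and serine domain, at chr4:131456447-131456746.
Srsf4 exon: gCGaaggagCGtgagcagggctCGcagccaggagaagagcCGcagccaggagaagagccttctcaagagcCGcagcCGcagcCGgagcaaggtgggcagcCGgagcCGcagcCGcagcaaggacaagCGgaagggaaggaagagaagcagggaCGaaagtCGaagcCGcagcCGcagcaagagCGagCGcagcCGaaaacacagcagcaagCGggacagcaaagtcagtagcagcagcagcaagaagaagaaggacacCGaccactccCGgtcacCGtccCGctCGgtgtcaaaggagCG
The next pair kept the highest level in Dnmt3b KO among windows with at least 10 CpGs used. These are an intron of Foxj3, a forkhead transcription factor, at chr4:119215001-119215300, and an intergenic site at chr12:15121618-15121917, 620.1 kb from the nearest start site, that of Gm9847.
Foxj3 intron: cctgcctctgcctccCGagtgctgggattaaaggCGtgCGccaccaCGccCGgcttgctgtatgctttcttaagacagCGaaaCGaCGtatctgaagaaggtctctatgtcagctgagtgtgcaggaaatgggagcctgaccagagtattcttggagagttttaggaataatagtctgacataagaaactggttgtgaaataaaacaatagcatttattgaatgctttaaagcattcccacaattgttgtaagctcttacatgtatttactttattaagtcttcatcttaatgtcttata
far from Gm9847: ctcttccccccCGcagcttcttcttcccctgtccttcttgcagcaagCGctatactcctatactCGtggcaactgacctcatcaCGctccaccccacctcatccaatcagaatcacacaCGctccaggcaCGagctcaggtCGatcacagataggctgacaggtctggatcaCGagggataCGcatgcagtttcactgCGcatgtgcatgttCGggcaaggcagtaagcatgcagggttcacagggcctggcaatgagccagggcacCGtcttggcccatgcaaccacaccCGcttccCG
The last pair had the lowest level in Dnmt3b KO among the same windows. These are a site placed in an intron of Rbm14, which encodes an RNA-binding coactivator, at chr19:4792480-4792779, and an intergenic site at chr12:105855418-105855717, 134.7 kb from the start of Dicer1. Introns were assigned from the longest protein-coding transcript of each gene. On the minus strand the Rbm14 stretch can be read through without a stop codon, so that it may be coding sequence of another transcript or another gene. The name Rbm14 and the label of an intron rest on this annotation alone, here and below.
Rbm14 intron: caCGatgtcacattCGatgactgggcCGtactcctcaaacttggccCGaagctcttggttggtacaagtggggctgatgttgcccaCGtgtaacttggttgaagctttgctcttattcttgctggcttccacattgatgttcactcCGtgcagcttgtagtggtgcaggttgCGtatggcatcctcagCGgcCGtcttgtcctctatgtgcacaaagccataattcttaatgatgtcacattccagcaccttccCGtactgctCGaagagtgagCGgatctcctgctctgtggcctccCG
far from Dicer1: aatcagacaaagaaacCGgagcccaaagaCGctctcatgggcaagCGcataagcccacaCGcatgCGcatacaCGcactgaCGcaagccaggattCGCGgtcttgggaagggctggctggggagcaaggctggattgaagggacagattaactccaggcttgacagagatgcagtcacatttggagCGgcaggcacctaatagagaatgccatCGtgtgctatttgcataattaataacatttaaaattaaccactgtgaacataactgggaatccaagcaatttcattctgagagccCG

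At the Esrrb stretch, each of the 14 CpGs had a ratio of 0% in Dnmt3a KO, on 9 to 14 reads per CpG. In WT the same CpGs ranged from 53.3% to 96.6%, and in Dnmt3b KO from 23.1% to 76.0%. The stretch near BC032203 averaged 90.6% in WT, 6.03% in Dnmt3a KO but 63.9% in Dnmt3b KO over 18 CpGs. In the Srsf4 exon, 25 CpGs averaged 83.9% in WT, 4.16% in Dnmt3a KO but 24.3% in Dnmt3b KO. In the Foxj3 intron the 8 CpGs averaged 87.0% in WT, 3.51% in Dnmt3a KO but 94.6% in Dnmt3b KO, the latter on 5 to 8 reads per CpG. In the Rbm14 stretch 13 CpGs averaged 73.7% in WT, 8.21% in Dnmt3a KO but 15.4% in Dnmt3b KO. The low levels in Dnmt3a KO follow from the selection, and 4 of the 7 stretches were picked for their high or low level in Dnmt3b KO, so that the spread there is also one of choice.

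**Figure D1:**
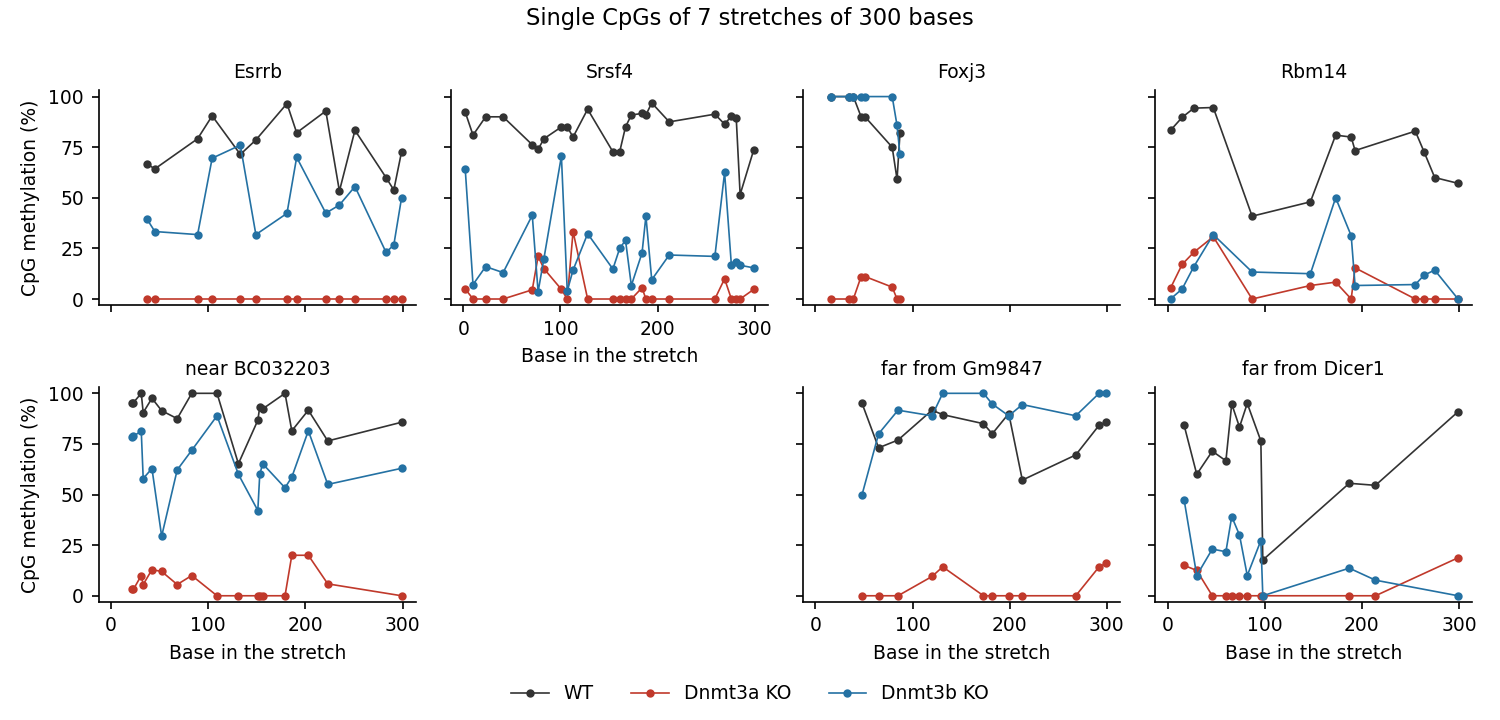
Methylation (%) of each CpG used (5 or more reads per genotype) against their position in each of the 7 stretches, for WT (black), Dnmt3a KO (red) and Dnmt3b KO (blue). In the Esrrb intron each of the 14 CpGs is at 0% in Dnmt3a KO, and Dnmt3b KO averages 94.6% in Foxj3 and 15.4% in Rbm14.

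The level in Dnmt3b KO was free to vary above that in Dnmt3a KO. It had a median of 59.7% over the 3551 windows, with 80% of windows between 43.1% and 74.9% and a full range of 16.5% to 96.3%. The medians in WT and Dnmt3a KO, which the rule fixed in part, were 78.4% and 7.23%. In all windows of WT at least 70%, the medians were 92.1% in WT, 57.9% in Dnmt3a KO but 85.9% in Dnmt3b KO. Selected windows thus lay toward the low end of the allowed range in WT, with 2083 (58.7%) below 80% and 173 (4.87%) at 90% or more, against 6.84% and 64.8% of all windows of WT at least 70%. Summed over reads, 79.0% of WT reads were methylated (95% Wilson interval 79.0% to 79.1%). The share was 7.08% (7.03% to 7.13%) for Dnmt3a KO reads and 58.8% (58.7% to 58.9%) for Dnmt3b KO reads. These intervals cover counting error only, and reads without molecular identifiers are not independent molecules.

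Dnmt3b KO fell short of WT by over 20 percentage points in 1700 selected windows (47.9%), against 4.59% of all windows of WT at least 70%. The WT level entered the selection and is part of this difference, so that it is given as a description. The median difference between WT and Dnmt3b KO was 19.5 points in selected windows and 5.95 points in all windows of WT at least 70%. Dnmt3b KO was at 70% or more in 742 windows (20.9%), at 50% to under 70% in 1995 (56.2%), at 30% to under 50% in 764 (21.5%) and under 30% in 50 (1.41%). Over all windows of WT at least 70% these shares were 92.4%, 7.13%, 0.489% and 0.0164%. Dnmt3b KO was at or above WT in 77 selected windows (2.17%), against 14.1% of all windows of WT at least 70%. The 814 windows under 50% in Dnmt3b KO had a WT median of 74.5%, and the 742 windows at 70% or more had one of 84.4%. The share in protein-coding genes was 59.3% in the first class, 52.3% in the second and 52.1% in the windows at 50% to under 70%. It was 53.8% over all selected windows and 45.6% over all windows of WT at least 70%.

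**Figure D2:**
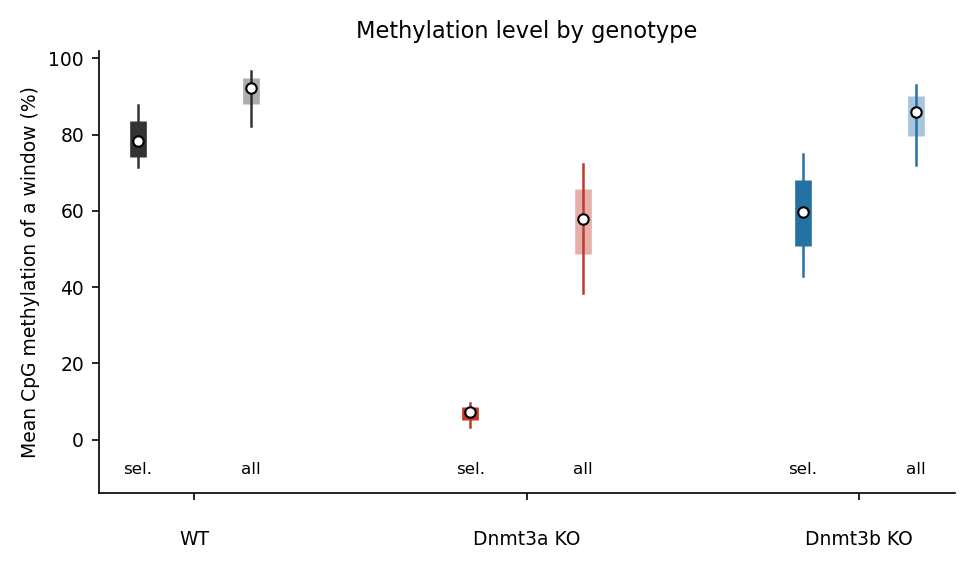
Mean CpG methylation of windows (%) in the 3 genotypes, for the 3551 selected windows (sel., dark) and the 998003 windows of WT at least 70% (all, pale); circles are medians, thick bars the middle 50% of windows and thin lines the middle 80%. Selected windows have a median of 59.7% in Dnmt3b KO, against 85.9% in all.

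The levels of single CpGs in Dnmt3a KO follow in large part from the limit on their mean and are given as a description. Of 44852 CpGs used in the selected windows, 22273 (49.7%) had a ratio of 0% in Dnmt3a KO, 40408 (90.1%) were at most 20% and 179 (0.399%) were above 50%. In Dnmt3b KO, 28158 CpGs (62.8%) were above 50% and 1093 (2.44%) were at 0%. Dnmt3b KO was above Dnmt3a KO at 96.3% of CpGs, and WT was above Dnmt3b KO at 78.5%. The median standard deviation (SD) between the CpGs of a window was 23.4 points in Dnmt3b KO, 16.4 points in WT and 9.13 points in Dnmt3a KO. The SD of a ratio depends on its level, which the rule set near 0 in Dnmt3a KO and high in WT, so that these SDs are not compared. In 1204 windows (33.9%) the lowest CpG in Dnmt3b KO exceeded the highest CpG in Dnmt3a KO.

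The strands gave like values, and the CpGs outside the selection differed from those used. In Dnmt3a KO 7.15% of reads on the plus strand and 7.01% on the minus strand were methylated. The 2899 CpGs of these windows that had too few reads in some genotype, and so did not enter the selection, were methylated in 70.8% of WT reads, 10.9% of Dnmt3a KO reads and 54.8% of Dnmt3b KO reads, against 79.0%, 7.08% and 58.8% for the CpGs used. The upper bound of the Wilson interval of the read share in Dnmt3a KO was under 20% in 3496 windows (98.5%). The rule had already limited the mean level in Dnmt3a KO on the same reads. This share therefore follows in large part from the selection and the depth, and is no separate support for the low level.

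The level in Dnmt3b KO differed with the base that follows the CpG. In selected windows, 65.2% of reads were methylated in Dnmt3b KO where C followed, 59.2% where T followed, 57.3% where G followed and 53.8% where A followed. In Dnmt3a KO the order of the ends was the other way round, with 5.76% where C followed and 8.12% where A followed. WT ranged from 77.5% (T) to 80.3% (C). In all windows of WT at least 70%, without CpGs above 200 reads, Dnmt3b KO had 87.8% where C followed, 85.2% where G followed, 84.1% where T followed and 82.0% where A followed, so that C and A were again the ends while G and T changed places. Dnmt3a KO there had its lowest share where T followed (53.9%) and its highest where G followed (60.5%), with 56.0% for C and 58.2% for A, which is another order than in selected windows. With the CpGs above 200 reads kept, the lowest share in Dnmt3b KO over all these windows was that of G (85.9%), with 86.6% for A, and Dnmt3a KO had its lowest share for C (58.3%) and its highest for A (70.5%), the same ends as in selected windows. A CpG followed by C made up 25.1% of sites in selected windows and 20.6% in all windows of WT at least 70%, and a CpG followed by A made up 20.2% and 24.4%.

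Dnmt3a KO was lowest in the selected window, by the rule, and the neighbours were also below the level around other methylated windows. Averaged over windows, Dnmt3a KO had 6.77% in the selected window, 25.7% in the window 1 kb toward the nearest WT-low window and 28.8% in that 1 kb away from it, where a WT-low window is an eligible window of at most 10% in WT. At 10 kb it was 42.0% and 47.0%. Around all windows of WT at least 70% the Dnmt3a KO means were 54.8% and 55.8% at 1 kb, and 52.2% and 54.99% at 10 kb. Dnmt3b KO also had its lowest mean at the selected window, 59.2%, against 64.3% and 70.6% in the neighbours and 73.5% and 79.1% at 10 kb. WT had a mean of 79.1% at the window, 75.6% toward the WT-low side and 81.4% on the other side, whereas its medians were 78.4%, 84.96% and 86.8%, lowest at the window itself. Of 2846 selected windows with both neighbours eligible, 1634 (57.4%) had more than 10% in Dnmt3a KO in both neighbours, and 1775 (62.4%) had at least 70% in WT in both, against 91.6% of such windows among all of WT at least 70%. The dip at the centre in Dnmt3a KO is the selection. The level of a neighbour was used by the rule where that neighbour was itself selected, as beside 482 selected windows (13.6%). These neighbours were kept in the means.

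**Figure D3:**
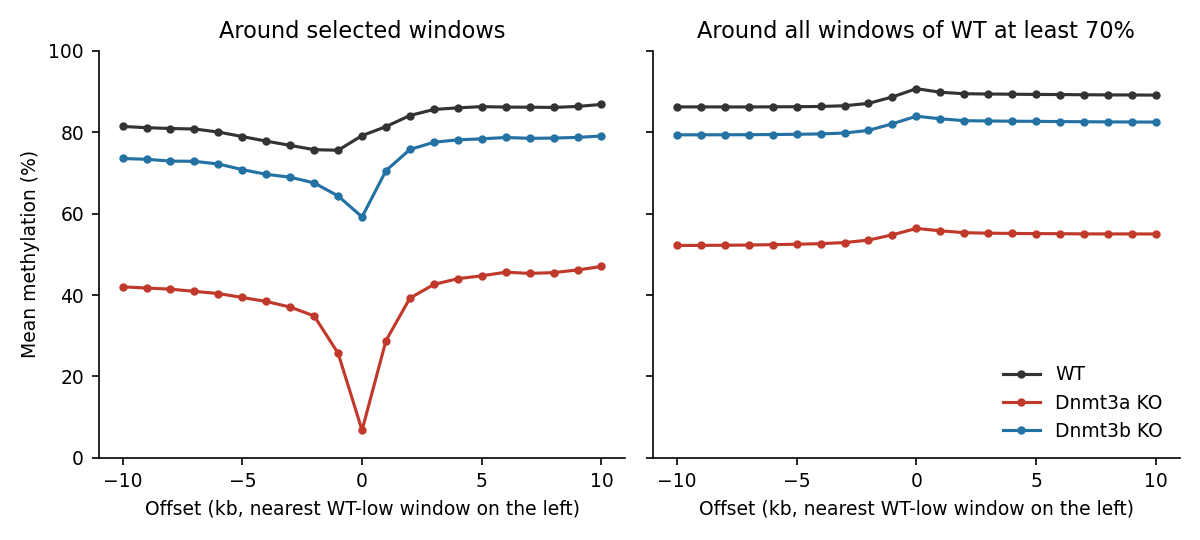
Mean methylation (%) of 1-kb windows by offset from the selected windows (left) and from all windows of WT at least 70% (right), each turned so that its nearest WT-low window lies to the left. Dnmt3a KO (red) falls to 6.77% at the selected window and is at 25.7% and 28.8% in its neighbours, and Dnmt3b KO (blue) has its lowest mean, 59.2%, at the same place.

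Most selected windows had no selected neighbour, yet they adjoined each other more often than other methylated windows adjoined them. They formed 3293 rows of neighbouring windows, of which 3069 were a single window, 197 held 2 windows, 22 held 3, 4 held 4 and 1 held 6. Thus 482 windows (13.6%) lay beside another selected window, against 0.489% of all windows of WT at least 70%. This share was 7.43% with a limit of 5% in Dnmt3a KO and 7.77% with WT at least 80%. Counting every neighbouring eligible window of at most 10% in Dnmt3a KO, whatever its WT level, the selected windows lay in 3229 low stretches, 278 of which also held a WT-low window, and 2189 selected windows (61.6%) were alone in their stretch. Of 35743 eligible windows at or below 10% in Dnmt3a KO, 12489 were at most 10% in WT, 19703 were above 10% and under 70%, and 3551 were the selected windows.

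Selected windows lay nearer to regions that are low in WT than other methylated windows did. A WT-low window was within 2 kb in 301 (8.48%), against 1.71% of all windows of WT at least 70%, and the median distance was 26 kb against 85 kb. The share of windows selected was 2.67% at a distance of 1 kb, 1.36% at 2 kb, 0.740% at 6 to 10 kb and 0.172% beyond 50 kb. Still, 2549 selected windows (71.8%) were more than 10 kb from a WT-low window, against 89.6% of all windows of WT at least 70%. Within windows of 5 to 10 reference CpGs the share selected was 1.51% up to 2 kb and 0.0904% beyond 50 kb, and within windows of 21 to 30 CpGs it was 3.08% and 0.645%. Between these ends the share fell at each step for the first class (0.552% at 3 to 10 kb and 0.333% at 11 to 50 kb) but not for the second (1.44% and 1.6%). WT levels define both the WT-low windows and the selection, and no test was made.

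The rule asked for at least 5 CpGs covered in each table, in selected and compared windows alike, and used no other feature of the sequence. Selected windows had a median of 11 CpGs used against 8, a GC content of 47.2% against 43.2%, and a CpG observed over expected ratio of 0.232 against 0.202 in all windows of WT at least 70%. The share selected was 0.113% at up to 5 reference CpGs, was highest at 1.11% for 21 to 30 CpGs, and was 0.706% for 31 to 40 and 0.481% for 41 or more, the last on 7 selected windows. CpG islands overlapped 55 selected windows (1.55%), against 0.570%. These 4 motifs were searched on both strands. GGGCGG, the core of the GC box, was in 24.3% of selected windows, 10.2% of all windows of WT at least 70% and 9.72% of windows that had at least 70% in both WT and Dnmt3a KO. CACGTG, an E-box, was in 603 selected windows (17%), and in 12.2% and 8.99% of the other sets. CGCG was in 19.1%, 10.9% and 17.8% in that order, and TGACGTCA, the cAMP response element, in 1.07%, 0.765% and 1.5%. The shares were not adjusted for the number of CpGs or the GC content, which also differed.

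**Figure D4:**
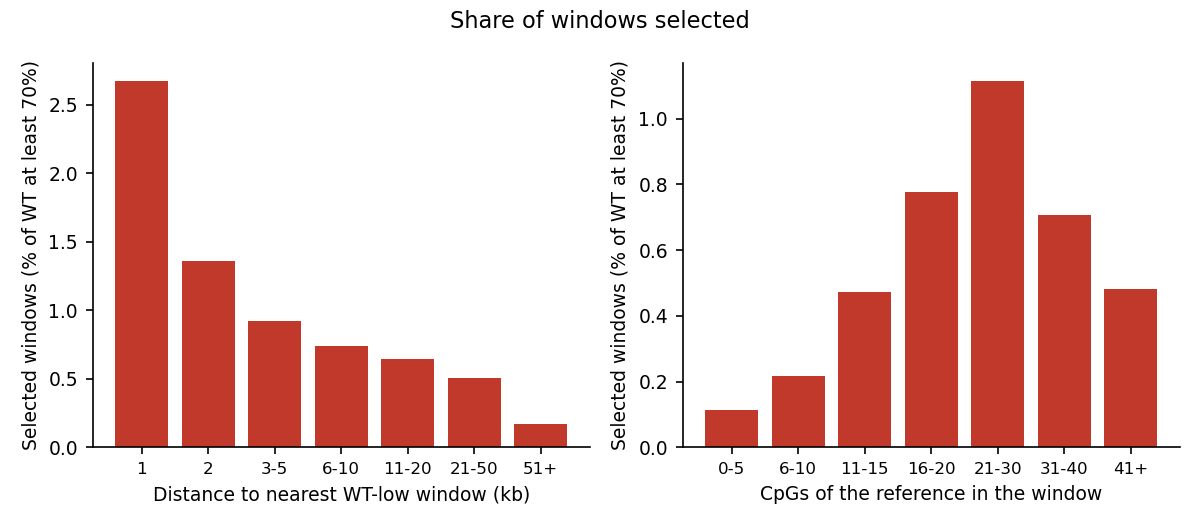
Selected windows as a share (%) of all windows of WT at least 70%, by distance to the nearest WT-low window in kb (left) and by the number of CpGs in the reference (right); bars start at 0. The share is 2.67% at 1 kb and 0.172% beyond 50 kb, and it is highest, at 1.11%, for 21 to 30 CpGs.

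By position, introns held 1528 selected windows (43.0%) and intergenic sequence 1467 (41.3%), against 34.4% and 52.5% of all windows of WT at least 70%. Exons held 299 (8.42% against 10.03%). Distal promoters, 500 to 3000 bp upstream of a transcription start site (TSS), held 186 (5.24% against 2.19%), and proximal promoters, within 500 bp of a TSS, held 71 (2.00% against 0.873%). The median distance to a TSS was 22.3 kb against 54.8 kb. The median level in Dnmt3b KO was 54.2% for selected windows in exons and 60.7% for intergenic ones, and Dnmt3b KO was lower than WT by more than 20 points in 63.2% and 45.3% of them. Over all windows of WT at least 70% these shares were 5.004% and 4.76%, and the medians in Dnmt3b KO were 86.8% in exons and 85.3% between genes. By chromosome, the share of windows selected ranged from 0.263% on chromosome 14 to 0.544% on chromosome 17.

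Esrrb carried 16 selected windows within the gene or 5 kb of it. These were 11% of its 146 windows of WT at least 70%, against 0.356% of all such windows. In these 16 windows WT ranged from 70.4% to 94.8% with a median of 77.0%, Dnmt3a KO from 0% to 8.48% with a median of 5.07%, and Dnmt3b KO from 42.2% to 81.2% with a median of 65.7%. All 16 were in introns, 15 of them between 102.4 and 143.4 kb downstream of the annotated TSS. The windows centred at -0.567 and 0.433 kb from this TSS had 92.2% and 93.9% in WT. The windows of the gene with the most CpGs, 49 and 68, lay at 60.4 and 61.4 kb and had 12.7% and 9.76% in WT. Which start site these cells use was not tested. The longest row of selected windows in the data was among them, 6 windows at chr12:87813001-87819000 with 84 CpGs. Averaged over its CpGs it had 76.9% in WT, 2.84% in Dnmt3a KO but 61.9% in Dnmt3b KO. Along the row Dnmt3b KO had 81.2%, 51.7%, 73.3%, 48.6%, 51% and 66.1%, so that neighbouring windows of the row differed in Dnmt3b KO. In the fourth window 0 of 284 reads in Dnmt3a KO were methylated, which allows a share of up to 1.06% by the limit of 3 reads (1.33% as the upper Wilson bound).

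**Figure D5:**
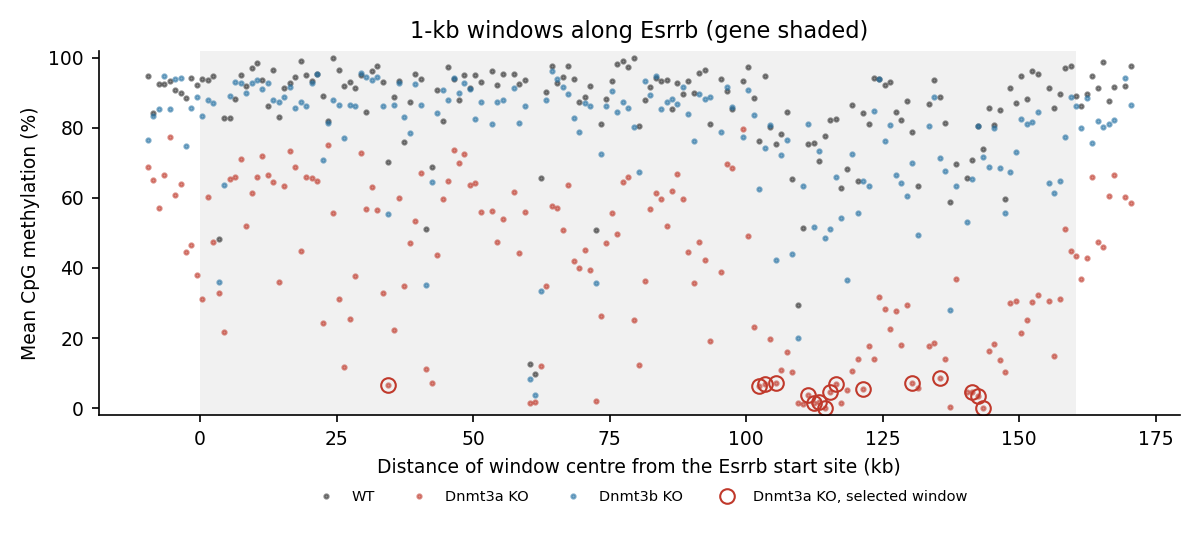
Mean CpG methylation (%) of 1-kb windows by distance of their centre from the Esrrb start site (kb) in WT (black), Dnmt3a KO (red) and Dnmt3b KO (blue), with the gene shaded and the 16 selected windows circled at their Dnmt3a KO level. Of these, 15 lie between 102.4 and 143.4 kb, among unselected windows that ranged in Dnmt3a KO from 0.321% at 137.4 kb, where WT had 58.9%, below the 70% of the rule, to 36.8% at 138.4 kb.

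Among the other pluripotency genes, Klf4, a transcription factor, had 2 selected windows in its exons. The first had 84.8% in WT, 5.91% in Dnmt3a KO but 72.5% in Dnmt3b KO, and the second 76.0%, 9.73% and 46.7%. Prdm14, a regulator of naive pluripotency, had 1 window in an exon with 83.6%, 3.83% and 71.3%. In all, 3 of 7 pluripotency genes on the analysed chromosomes had a selected window within 5 kb, against 12.3% of 14276 protein-coding genes. The median gene length was 13.7 kb for the 7 genes and 16.1 kb for all, and the shares were not adjusted for length.

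Of 8 genes of the methylation machinery, 3 had a selected window within 5 kb (37.5%), against 12.3% of all protein-coding genes, with a median gene length of 29.98 kb against 16.1 kb. Tet2 had 5, all in introns, with WT from 71.7% to 85.8%, Dnmt3a KO from 1.06% to 8.68% and Dnmt3b KO from 48.5% to 69.0%. Tet1 had 2 windows that lay far apart in Dnmt3b KO. The window in the proximal promoter of its annotated TSS, chr10:62362001-62363000, had 80.6% in WT, 7.18% in Dnmt3a KO but 80.3% in Dnmt3b KO over 14 CpGs, and that in an intron, chr10:62337001-62338000, had 77.4%, 6.73% and 32.9% over 10 CpGs. The promoter window lay 7 kb from the nearest WT-low window and 12.2 kb from the nearest CpG island. Whether these cells use this TSS was not tested. Zfp57, which keeps methylation at imprinted regions, had 1 window 4.61 kb upstream with 83.8%, 2.22% and 66.3% over 5 CpGs.

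Of 31 developmental regulators 2 (6.45%) had a selected window within 5 kb, against 12.3% of all protein-coding genes. The median gene length was 20.2 kb for these 31 genes and 16.1 kb for all. The list includes canyon genes, which can have few windows high enough in WT to be selected. Windows of WT at least 70% were 1 of 14 eligible ones at Sox2, 28 of 43 at Gata3 and 74 of 82 at Bmp7. The shares were not adjusted for this. Bmp7, a signalling ligand, had 2 windows beyond its 3′ end, with 71.4% and 84.8% in WT, 9.95% and 9.68% in Dnmt3a KO and 59.7% and 60.4% in Dnmt3b KO. Gata3, a zinc finger transcription factor, had 1 with 79.5%, 9.12% and 84.3%. Sox2, a transcription factor of pluripotency and neural fate, had 0 within 5 kb, where 1 window was at least 70% in WT, with 10.7% in Dnmt3a KO. A window of 43 CpGs at chr3:34560001-34561000, 11.6 kb downstream of the Sox2 TSS, was selected, with 80.2% in WT, 7.94% in Dnmt3a KO but 50.0% in Dnmt3b KO. Of 9 germline genes, with a median length of 28.0 kb, 0 had a selected window within 5 kb, against 12.3% of all protein-coding genes. Among 6 genes that the study itself examined, which are not independent of these data, 2 (33.3%) had a selected window within 5 kb, against 12.3% of all protein-coding genes. The median gene length was 100.6 kb for these 6 genes and 16.1 kb for all. Foxo3, a forkhead factor, and Jak2, a kinase of LIF signalling, had 1 intronic window each, with 65.5% and 48.4% in Dnmt3b KO.

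Besides Esrrb, further genes with many selected windows were named once their values had been seen. Pitpnc1, a phosphatidylinositol transfer protein, had 17, more than the 16 of Esrrb. These were 7.02% of its 242 windows of WT at least 70%, with 43.5% to 79.8% in Dnmt3b KO. Macf1, a cytoskeletal crosslinker, had 8 (3.39%). Rusc2 had 7 in a shorter gene (15.9% of 44 windows), Usp7, a deubiquitinase, had 7 (8.33%), and Robo1, an axon guidance receptor, had 7 (2.06%). Over all windows of WT at least 70% the share was 0.356%. The genes were picked for the highest counts among 14276 protein-coding genes, so that shares above it follow in part from the choice. Macf1 (334.7 kb) and Robo1 (382.9 kb) are long, and the counts were not adjusted for length.

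The other long rows, held at or below 10% in Dnmt3a KO by the rule, had higher levels there than the row in Esrrb. A row of 4 windows at chr17:46980001-46984000, nearest to BC032203, had 89.7% in WT, 7.23% in Dnmt3a KO but 73.6% in Dnmt3b KO over 83 CpGs. A row of 4 at chr10:61291001-61295000, 44.6 kb upstream of H2afy2, had 76.9%, 5.29% and 44.4%. Rows of 4 also lay in an intron of Asap2 (80.6%, 8.75% and 63.9%) and upstream of Myst4, a histone acetyltransferase (78.8%, 4.43% and 52.2%). The 5 rows of 3 windows with the most CpGs, in Ankrd33b, Dennd2c and Cpm and nearest to Serp2 and Diras2, ranged from 58.4% to 77.0% in Dnmt3b KO.

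The windows with the most CpGs also spread in Dnmt3b KO. The window with the most CpGs, 63 in the Srsf4 exon at chr4:131456001-131457000, had 81.5% in WT, 8.23% in Dnmt3a KO but 25.3% in Dnmt3b KO. In 8 others of the 10 windows with the most CpGs, Dnmt3b KO ranged from 38.4% to 63.5%. Among these were exons of Gpr182, Cpm and Zbtb20, an intron of Rusc2 and the proximal promoter of Hsf2bp, a meiotic protein, which had 76.1% in WT, 9.15% in Dnmt3a KO but 63.5% in Dnmt3b KO. At the ends of the Dnmt3b KO range among windows with at least 10 CpGs used, the Foxj3 intron had 92.0% over 10 CpGs, with 89.0% in WT, and the Rbm14 window had 19% over 17 CpGs, with 72.9% in WT. The next highest (89.0% to 90.7%) were in introns of Kank4 and St3gal3 and at intergenic sites 620.1 kb from the start of Gm9847 and far upstream of Foxn3. The next lowest (19.2% to 23.1%) were the intergenic site 134.7 kb from the start of Dicer1 and windows in Irak4, Srsf5 and Jub.

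The limit in Dnmt3a KO cut through a continuum. Of windows with at least 20 CpGs, the 5 just inside it, in Lemd3, Arhgef10l, H2afy, Lrp8 and Rbms1, had from 9.97% up to the limit of 10%, with 40.8% to 67.4% in Dnmt3b KO. The 5 just outside it, 31.3 kb from the start of Tnfsf11, 73.7 kb from that of Fam43a and in Got1, Zfp598 and Fam113b, lay above it by less than the first decimal of a percent, with 42.0% to 77.2% in Dnmt3b KO.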

How the data were processed

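The tables hold WGBS of 9 libraries of J1 ESCs, 3 for each genotype. The authors used BSMAP for alignment to mm9, BSeQC against technical bias and mCall (MOABS) to count reads over CpGs, and merged the libraries of a genotype. The deposited values used are unnormalised read counts per CpG, in total, methylated and by strand, and the authors give the ratio of the counts as a fraction from 0 to 1. The fraction was recomputed from the counts for each CpG. The WT table ends on chromosome 4, and its incomplete last row (1 row) was left out.

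Windows, levels and neighbours were computed with Python 3.11.15, NumPy 2.4.6, pandas 2.3.3 and SciPy 1.17.1, with matplotlib 3.10.9 for the figures. The annotation comprised the protein-coding genes of the GENCODE annotation of the same build, and CpG islands were found in the reference (500 bp, GC content 55%, observed over expected ratio 0.65). The code of the rule was run on simulated windows set well inside its limits, which does not bear on windows near them. Repeats and non-CpG methylation were not analysed here. No test was made, since each genotype is 1 pooled value. The windows, gene lists and named regions were chosen with earlier results of these data known. Named were the 10 longest rows, the 10 windows with the most CpGs (1 of which is not reported here), the 5 highest and 5 lowest in Dnmt3b KO, 5 windows on each side of the limit, and listed genes with a selected window within 5 kb. Alternatives covered the minimum of reads and CpGs, weighting by reads, the grid, the limits and very deep CpGs.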

Additional observations from a re-analysis of the deposited data

How the results depend on the processing

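No paired analysis was possible because a genotype's 3 libraries share 1 merged table, which also left no single library to leave out. The number of selected windows was 2240 with at least 10 CpGs per window, 821 with a limit of 5% in Dnmt3a KO, 8720 with one of 15%, and 1468 with WT at least 80%. With the 5% limit the median in Dnmt3b KO was 56.1%, the share more than 20 points below WT 54.3%, the share within 2 kb of a WT-low window 7.43%, the share beside another selected window 7.43% and the CpG observed over expected ratio 0.220. With the 15% limit the median was 62.2%, the share below WT 42.2% and the share beside another window 19.8%. With WT at least 80% the median was 66.4%, the share below WT 45.5%, the share within 2 kb 5.79%, the share beside another window 7.77% and the share in distal promoters 3.88%. With at least 10 CpGs the share within 2 kb was 6.92%, beside another window 11.6% and in distal promoters 4.33%, and the ratio was 0.281. With at least 10 reads per CpG the ratio was 0.244. Shifting the grid by 500 bp gave 46.0% below WT and 15.7% beside another window. The other values stayed within the interval of the main value, or within 1.5 times for the count. These included the values with at least 3 reads and with reads as weights. The interval counts selected windows as if they were independent, although neighbouring windows come from the same pooled tables. The alternatives also reuse the same reads, so that staying within the interval is a description and no test of robustness. Leaving out CpGs above 200 reads changed 4263 eligible windows and 0 selected ones, so that this setting could show little. Depth, a median of 21.5 reads per CpG in Dnmt3a KO, limits single CpGs more than windows.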

Other observations

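On chromosomes without WT values, windows of the same kind can be counted from the KOs alone. Of eligible windows with all 3 genotypes, 767 had at most 10% in Dnmt3a KO and at least 70% in Dnmt3b KO, and 742 of them (96.7%) were selected windows. On chromosomes 5 to 9 and X, which the WT table does not reach, 349 of 492653 windows (0.0708%) met these 2 conditions, against 687 of 999925 (0.0687%) on the 13 chromosomes covered whole in WT. By chromosome the share ranged from 0.0437% on chromosome 8 to 0.120% on chromosome 17, with 0.117% on chromosome X. Windows under 70% in Dnmt3b KO, which made up most of the selected set, cannot be counted in this way.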
